A study of Mus musculus with 8 samples.

Results

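Crypts of Lgr4 null mice were compared with wild-type crypts at day 0 of culture, the earliest time of the series. The comparison is held by the 2 arrays titled day 0, out of 8 arrays in all, and both were chosen by their titles and carry no LiCl. Each 2-colour array set RNA of null crypt cells directly against RNA of wild-type crypt cells. The null mice carry the allele Lgr4/Gpr48 Gt, a gene trap crossed back onto CD1, an outbred background that the wild-type mice share. The labels give no age and no agent for day 0, name the tissue only as intestinal crypt cells, and speak of RNA from crypts cultured ex vivo. A gene trap acts in every cell of the body, so the null crypts also came from a null animal. The null RNA was in Cy5 on array 1 and in Cy3 on array 2, so a dye effect cancels in their mean. Nothing in the labels tells whether these arrays hold separate animals or the same pair of RNAs with the dyes swapped, so p-values measure the spread between arrays of the series, pooled over its groups, which may be technical only. The remaining 6 arrays (2 each at day 0.5, at day 1 and at day 1 with LiCl) entered the fit, and the day 1 arrays without LiCl served as a comparison.

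LGR4 is a membrane receptor of the R-spondins, which keep Frizzled receptors at the cell surface and thereby amplify Wnt signals. In the crypt, Wnt signals maintain the stem cells at the base and drive the maturation of Paneth cells, which lie between the stem cells and secrete lysozyme and alpha-defensins. Absorptive enterocytes, goblet, enteroendocrine and tuft cells arise from the same stem cells, and T cells live among the epithelial cells.

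Values are log ratios per gene, taken as log2 of null over wild type, and each error is a limma standard error with n = 2 arrays. That direction is likely rather than settled: it rests on the labels, which put the null RNA in channel 1 of both arrays, and on Paneth cell genes being low, so the direction of those genes is not independent evidence. A value of 1 is a 2-fold difference. Genes passed at an adjusted p under 0.05 over all 15123 genes. In the main fit, a gene passed at day 0 only with the same sign on both arrays. The deposited values hold no intensities, so whether a probe gave signal above background is unknown, and a ratio near 0 may come from a probe with no signal. Lgr4 itself was not analysed here, since no probe used carries its name. Without levels the labelled tissue could not be checked by the level of its markers, and the ratios of the markers are given below.

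Of 15123 genes, 340 passed (2.25%), 194 of them higher (1.28%) and 146 lower (0.965%) in null crypts. At least a 2-fold difference was seen for 111 of them, 63 higher and 48 lower. The same sign on both arrays was required of all 340, so it is no evidence that the arrays agree. Over these genes the median absolute difference between the arrays was 0.20. Over all genes the arrays correlated with r = 0.496, where genes are not independent replicates. The main fit, which gave the 340, has no block for the replicate number. The fit with the replicate number as a block (the replicate block) passed 635 genes, which included all 340. The count depends on having both arrays: 29 genes passed without array 1 and 30 without array 2. Of the 30 genes at the extremes (the 15 highest and 15 lowest of those that passed), 22 passed without array 1 and 17 without array 2. Arrays of the other groups enter only through the shared estimate of the spread and the dye term. Leaving 1 of them out gave 228 genes for each day 0.5 array, 190 for each day 1 array and 310 for each LiCl array. The array left in its group is then fitted exactly by its own mean. Leaving out either array of a group therefore gives the same day 0 fit and is a single check.

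**Figure D1:**
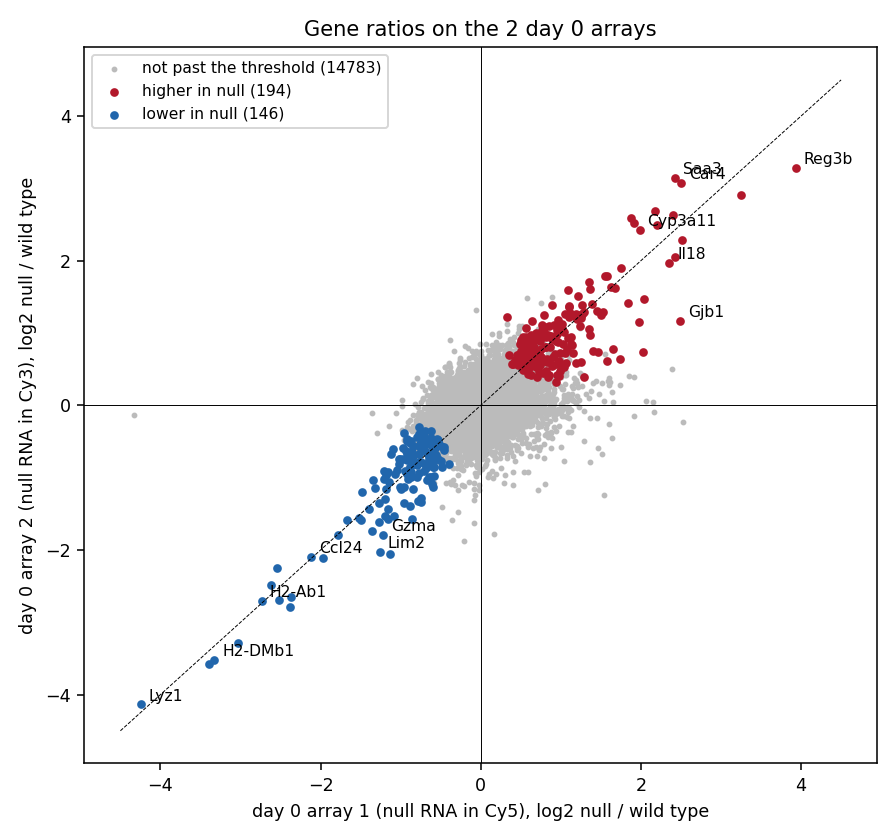
Log2 ratio of null over wild type for each gene on array 1 (x axis) and array 2 (y axis) of day 0, with a dashed line of equal values. Red genes (194) passed as higher, blue genes (146) passed as lower, and grey genes (14783) did not pass; Reg3b lies at the upper end and Lyz1 at the lower end on both arrays.

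The highest ratio belonged to Reg3b, a secreted lectin that binds and kills gut bacteria. Reg3b stood at 3.94 on array 1 and 3.28 on array 2, a mean of 3.61 ± 0.15 or 12.2-fold (adjusted p = 0.00018). Reg3g, a lectin of the same family, followed with 3.25 and 2.91 (mean 3.08 ± 0.15, 8.48-fold, adjusted p = 0.000288). Car4, a carbonic anhydrase anchored on the cell surface, read 2.50 and 3.08 (2.79 ± 0.19, 6.92-fold). Ada and Nt5e, enzymes that break down and produce adenosine, were both higher, and both values lay well clear of 0 on each array. Ada read 2.40 and 2.63 (2.51 ± 0.17), and Nt5e read 1.92 and 2.52 (2.22 ± 0.20). Others among the highest were the glycosyltransferase gene B3galt5 at 2.43 ± 0.16, the annexin Anxa10 at 2.23 ± 0.17 and the gap junction gene Gjb1. Gjb1 differed most between the arrays among the highest 15, with 2.49 and 1.17 (1.83 ± 0.28, adjusted p = 0.0254).

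The lowest ratio belonged to Lyz1, the Paneth cell lysozyme, with -4.25 and -4.14 on arrays 1 and 2. The mean of -4.19 ± 0.14 is an 18.3-fold lower value (adjusted p = 0.000135), and its 2 probes read -4.40 and -3.98. Of the 15 lowest genes, 3 belonged to the Paneth cell list and 6 to the MHC class II list. The others were the interferon gamma responsive genes Ubd and Ido1, the chemokine gene Ccl24, Ifitm3, Lim2 and Fibcd1. Ccl24, which attracts eosinophils, read -2.12 and -2.10 (-2.11 ± 0.10, 4.31-fold lower, adjusted p = 0.000288). Ifitm3, which blocks viral entry, read -1.78 and -1.79 (-1.79 ± 0.19). Lim2, known as a lens membrane protein, read -1.26 and -2.02, and Fibcd1, a receptor for acetylated sugars, read -1.67 and -1.59.

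**Figure D2:**
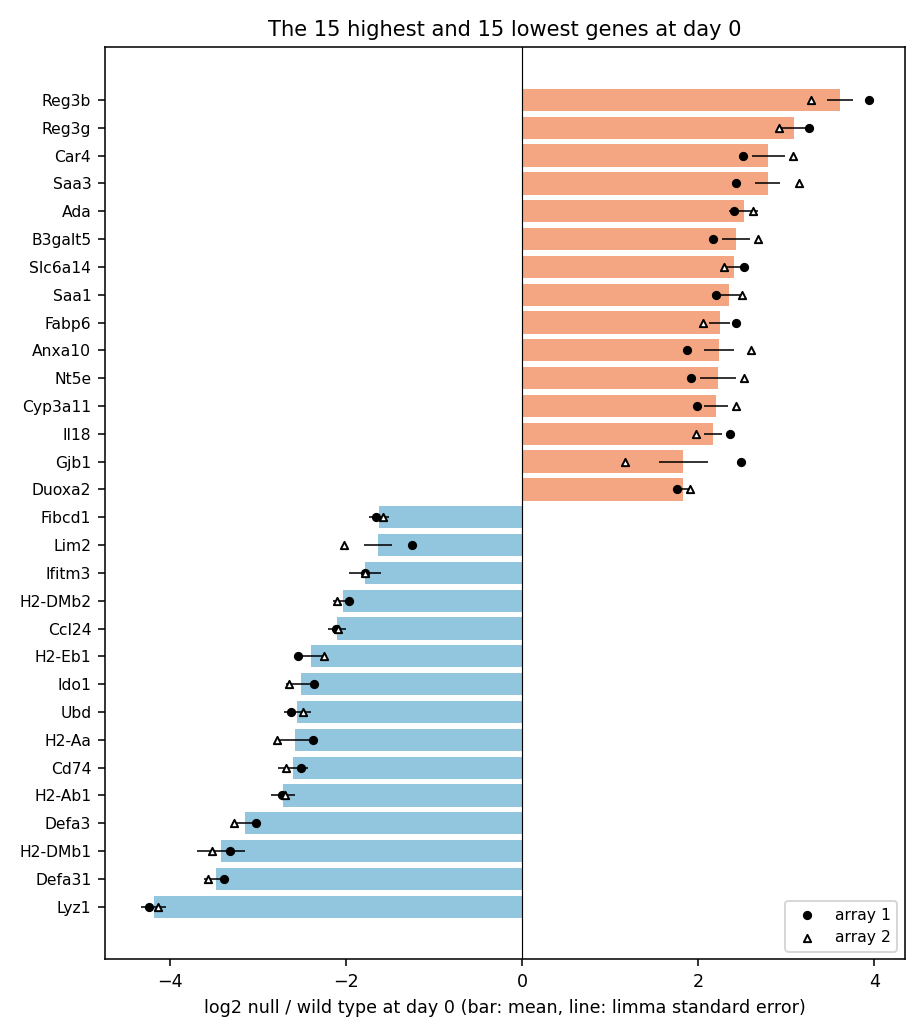
Log2 ratio of null over wild type at day 0 for the 15 highest and 15 lowest genes that passed; bars are the mean of the 2 arrays, lines the limma standard error, circles array 1 and triangles array 2. The means run from 3.61 for Reg3b to -4.19 for Lyz1, and the same sign on both arrays was required of each gene.

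Paneth cell genes were lower in null crypts for 11 of 12 measured members, against 0.965% of all genes, and the median of the list was -1.16 against 0.00 for all genes. The alpha-defensins, antimicrobial peptides of the Paneth cell granule, differed among themselves. Defa31 read -3.39 and -3.57 (-3.48 ± 0.14, 11.2-fold lower), Defa3 read -3.03 and -3.28, and Defa20 read -0.74 and -1.34 (-1.04 ± 0.17). Defa21 read -0.14 and 0.24 and did not pass. These genes are near-identical copies that a probe may not tell apart. Outside the defensins, the lectin Itln1 fell by 1.23 ± 0.10, the ribonuclease Ang4 by 1.21 ± 0.16, the pentraxin Mptx1 by 1.10 ± 0.17 and the defensin-activating protease Mmp7 by 1.05 ± 0.15. The smallest differences that passed were those of the lipase cofactor gene Clps at -0.71 ± 0.11 and the protease gene Habp2 at -0.53 ± 0.09. Lyz2, the lysozyme of macrophages, passed at -1.29 ± 0.18, but its 4 probes read -3.36, -1.07, -0.79 and 0.06, and it did not pass on their median. In bulk RNA, fewer cells of a type and less RNA per cell cannot be told apart. Without array 1, 3 members of the list passed, without array 2 again 3, and with 1 array of the other groups left out 8 to 10. Probes of class mMC alone, which leave fewer probes per gene, gave 5.

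Genes of crypt base stem cells lay closer to 0, and 2 of 18 passed, both lower. Of all genes 0.965% were lower and 2.25% passed in either direction, and these shares serve for every list of this paragraph. Cdca7, which is active in dividing cells, read -0.99 and -1.16 (-1.08 ± 0.20, adjusted p = 0.046), and Rnf43, a ubiquitin ligase that removes Frizzled receptors, read -0.63 and -0.36 (-0.49 ± 0.09, adjusted p = 0.0491). The median was -0.20, and 12 of 18 were below 0 on both arrays, as were 29.3% of all genes. The stem cell receptor gene Lgr5 read -0.23 on each array, the stem cell regulator Ascl2 -0.70 and -0.47, the marker Smoc2 -0.55 and -0.21, and none of these passed. Sox9, a transcription factor of the crypt base, read 0.09 and -0.62, so its arrays lay on either side of 0. Of 25 Wnt target genes 3 were lower: Mmp7, Rnf43 and Ccnd1, the cyclin of early G1 phase. Ccnd1 read -0.66 and -0.68 (-0.67 ± 0.09, adjusted p = 0.0205), and its 4 probes ran from -0.98 to -0.44. Axin2, a feedback inhibitor of the pathway, read -0.02 and -0.06, and Myc read 0.06 and -0.40. The median of the list was -0.09. Without either day 0 array 0 members of both lists passed, and 0 or 1 stem cell genes and 2 Wnt target genes passed with 1 array of the other groups left out. Of 24 Frizzled, Lrp, Lgr and R-spondin genes Rnf43 alone passed, and of 22 Notch pathway genes and 15 Eph receptor and ephrin genes 0 passed (3 and 1 at an unadjusted p under 0.05, as had 15% of all genes, and 0 and 1 with the replicate block).

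**Figure D3:**
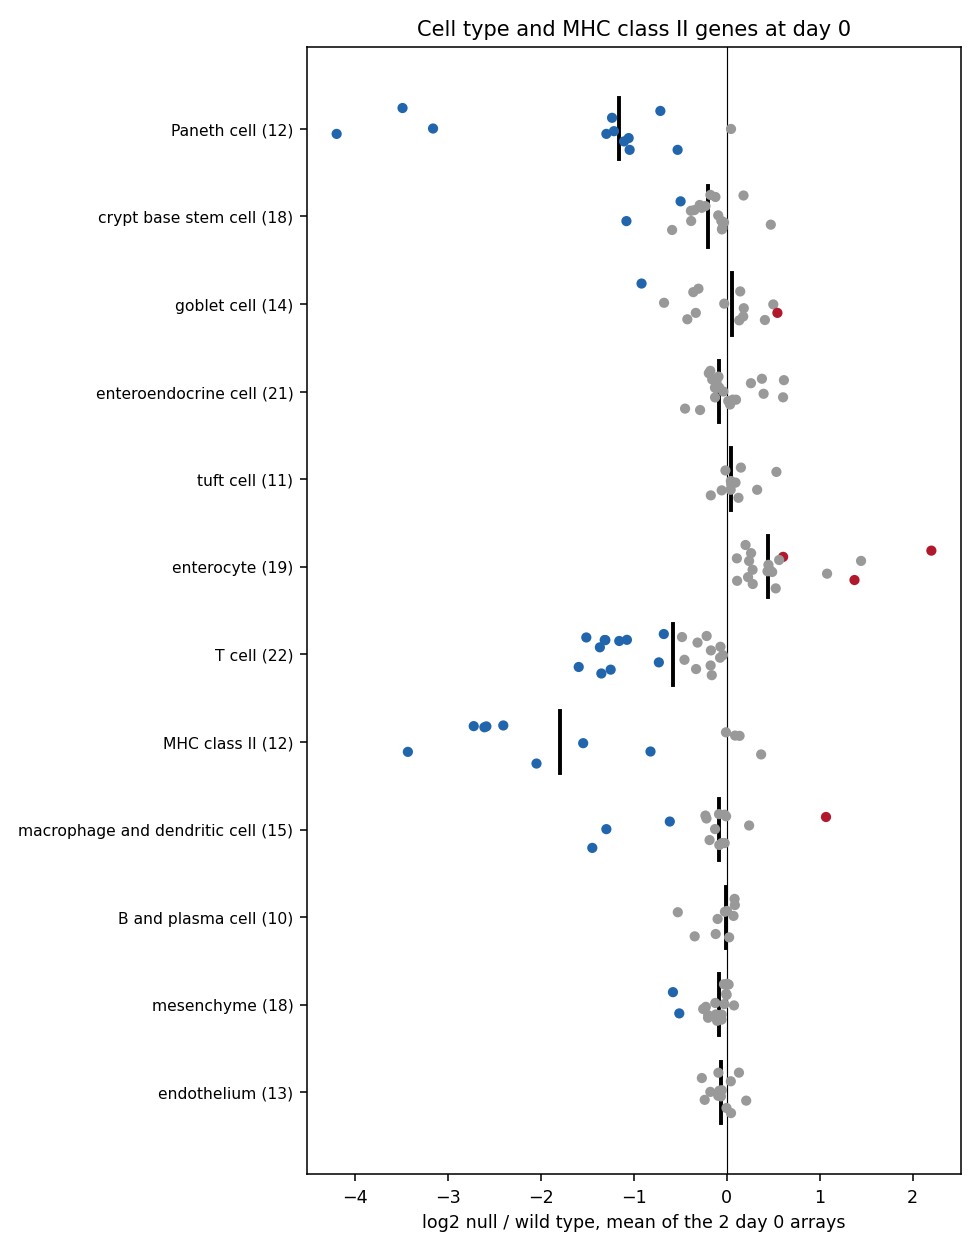
Mean log2 ratio of null over wild type at day 0 for each measured gene of 12 lists (number of genes in brackets); red genes passed as higher, blue as lower, grey did not pass, and black lines are list medians. The Paneth cell (median -1.16), T cell (-0.58) and MHC class II (-1.79) lists hold most of the blue genes, while the enterocyte list has its median at 0.45.

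In the lists of other secretory cells, genes passed only among those of goblet cells, 1 higher and 1 lower. Of all genes 2.25% passed and 15% had an unadjusted p under 0.05. Of 14 goblet cell genes (6 at an unadjusted p under 0.05), Guca2a, the peptide guanylin, was higher at 0.55 ± 0.10. The chemokine Ccl9 was lower at -0.91 ± 0.13. The goblet cell gene Zg16, a lectin of mucus, read 0.38 and 0.45, and the mucin Muc13 read 0.91 and 0.10, and neither passed. Of 21 enteroendocrine genes 0 passed (6 at an unadjusted p under 0.05). The hormone gene Cck read 0.85 and 0.37, the regulator Neurod1 0.78 and 0.45, and the glucagon gene Gcg -0.63 and -0.26. Of 11 tuft cell genes 0 passed (2 unadjusted), with the kinase gene Dclk1 at -0.20 and 0.09 and the channel gene Trpm5 at 0.32 and 0.34. The replicate block passed 4 goblet, 2 enteroendocrine and 1 tuft cell genes, among them Muc13 (adjusted p = 0.0404), Cck (adjusted p = 0.0386) and Neurod1 (adjusted p = 0.0483). Without either day 0 array 0 passed in these lists, and with 1 other array left out 1 or 2 goblet cell genes did.

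Genes of MHC class II, the complex that shows peptides to helper T cells, were lower for 8 of 12 measured members, against 0.965% of all genes, with a median of -1.79. H2-DMb1, a chain of the H2-DM complex that loads peptides, read -3.33 and -3.53 (-3.43 ± 0.27, 10.7-fold lower, adjusted p = 0.00171). The chains of the complex itself were lower to a like degree on both arrays: H2-Ab1 read -2.73 and -2.70, H2-Aa -2.38 and -2.79, and H2-Eb1 -2.55 and -2.25. Cd74, the invariant chain that guides the complex through the cell, read -2.52 and -2.69 (-2.60 ± 0.17, 6.08-fold lower). H2-DMb2 at -2.04 ± 0.11 and H2-DMa at -1.54 ± 0.09 also passed. Ciita, the coactivator that switches these genes on, read -0.65 and -0.99 (-0.82 ± 0.10, adjusted p = 0.0132). The other 4 members did not pass, among them H2-Oa at -0.08 and 0.26. Of these 4, 2 were above 0 on both arrays, and the highest mean of the list was 0.37. Without array 1, 4 members passed, without array 2, 3, and 8 passed whichever array of the other groups was left out.

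In textbook promoters of MHC class II genes a Y box, an inverted CCAAT motif, lies just before the start. The letters CTGATTGG were searched on both strands of RefSeq promoters (250 bases before to 50 after each start, GRCm38.p6). Among genes of the list with a promoter in the table, 3 of 9 held them, against 4.70% of 27025 genes. H2-Aa and H2-Eb1 are shown as the genes that held these letters and passed; H2-Oa, the other of the 3, did not pass. The capitals mark the motif, which begins 51 bases before the start of H2-Aa (chr17:34287832-34287909, minus strand) and 62 before that of H2-Eb1 (chr17:34305770-34305847, plus strand). A match is a description of these letters and not evidence of binding.
H2-Aa: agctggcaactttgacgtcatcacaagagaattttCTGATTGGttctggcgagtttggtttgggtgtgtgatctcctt
H2-Eb1: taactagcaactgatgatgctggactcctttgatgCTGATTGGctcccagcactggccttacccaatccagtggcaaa

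T cell genes were lower for 11 of 22 measured members, against 0.965% of all genes, with a median of -0.58, and 18 of 22 were below 0 on both arrays, against 29.3%. The chains of the CD3 complex, which signals for the T cell receptor, read -1.20 and -1.30 for Cd3g, -0.95 and -1.35 for Cd3d, and -0.96 and -0.39 for Cd3e. Genes of cytotoxic granules were lower too, with Gzma at -1.51 ± 0.14, Gzmb at -1.36 ± 0.11 and Nkg7 at -1.07 ± 0.13. The signalling adaptor Lat stood at -1.31 ± 0.16, the lectin receptor Klrd1 at -1.35 ± 0.15 and Coro1a, an actin regulator of leukocytes, at -0.73 ± 0.10. Cd8b1, a chain of the CD8 co-receptor, read -0.53 and -0.43, Itgae, the integrin of intraepithelial T cells, read -0.32 and -0.31, and Ptprc, the common leukocyte antigen, read -0.36 and -0.55, and none of these passed. Under the replicate block Cd8b1 did (adjusted p = 0.0382). The list rests on both arrays: 1 member passed without array 1 and 0 without array 2, against 9 to 11 without 1 of the other arrays.

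Markers of other cells that a crypt preparation may hold were mostly near 0, apart from red blood cell genes. Of all genes 0.965% were lower, 1.28% were higher, and 15% had an unadjusted p under 0.05. Of 15 macrophage and dendritic cell genes 3 were lower and 1 higher. Laptm5, a lysosomal protein of leukocytes, read -1.27 and -1.62 (-1.44 ± 0.24), C1qc, a complement chain, stood at -0.61 ± 0.09, and Lyz2 has probes that disagree. Cd14, a co-receptor for bacterial lipopolysaccharide, was higher at 1.07 ± 0.11. The defining macrophage genes C1qa and Adgre1 read -0.08 ± 0.11 and -0.02 ± 0.09. Of 10 B and plasma cell genes 0 passed (2 unadjusted), with the B cell receptor gene Cd79a at -0.19 and -0.04 and the immunoglobulin joining chain gene Jchain at -0.79 and -0.25. Of 18 mesenchyme genes Vim, an intermediate filament, at -0.58 ± 0.09 and the matrix gene Dcn at -0.51 ± 0.09 were lower, whereas the collagen gene Col1a1 at -0.10 ± 0.12 and the smooth muscle gene Acta2 at 0.08 ± 0.09 did not pass. Of 13 endothelium genes 0 passed (2 unadjusted), with Pecam1 at -0.17 ± 0.12, and of 7 glia and neuron genes 0 passed (0 unadjusted). Of 6 red blood cell genes Hba-a1 was lower at -0.59 ± 0.10, and the median of the list was -0.33. Of these 6 genes 4 were below 0 on both arrays and 3 had an unadjusted p under 0.05. The replicate block passed 2 red blood cell genes. The part of these cells in the MHC class II, T cell and chemokine results was not tested, and ratios alone give no level of a marker. In these lists 0 genes passed without array 1 and 0 without array 2, and with 1 of the other arrays left out 3 or 4 macrophage, 0 or 1 mesenchyme and 0 or 1 red blood cell genes did.

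Of 24 chemokine genes, whose products attract leukocytes, 6 were lower and 1 higher, against 0.965% and 1.28% of all genes. Ccl24, described above, is not in this list. Ccl5 read -1.13 and -2.05 (-1.59 ± 0.19), Ccl4 stood at -1.37 ± 0.14, Xcl1, which attracts dendritic cells, at -1.30 ± 0.14 and Ccl3 at -0.96 ± 0.14. Ccl5 and Xcl1 are also in the T cell list, and the 2 probes of Ccl4 read -2.01 and -0.72. Ccl9 and Cxcl9 (-0.69 ± 0.11) were lower too, and the 2 probes of Cxcl9 ran from -1.27 to -0.12. Ccl20, an epithelial chemokine that recruits lymphocytes to the gut, stood on the other side of 0, at 2.04 and 1.47 (1.75 ± 0.12, 3.37-fold higher, adjusted p = 0.000956). Without array 1 or array 2, 1 chemokine gene passed.

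Genes that respond to interferon gamma did not share a direction, with a list median of 0.01. Of 26, 3 were lower and 1 was higher, against 0.965% and 1.28% of all genes. An unadjusted p under 0.05 was held by 12 of the 26, against 15% of all genes. Ubd, a ubiquitin-like tag, read -2.62 and -2.49 (-2.56 ± 0.15, 5.88-fold lower), and Ido1, which degrades tryptophan, read -2.37 and -2.65 (-2.51 ± 0.17, 5.70-fold lower). Cxcl9 was lower, while Cxcl10, a chemokine gene of the same response, read -0.17 and -0.16 and Irf1, an interferon-induced transcription factor, read 0.18 on both arrays, and neither passed. Socs3, a feedback inhibitor of cytokine signalling, was higher at 1.68 and 1.63 (1.65 ± 0.11, 3.14-fold). Of 23 genes of MHC class I and antigen processing 2 were lower, and 7 had an unadjusted p under 0.05. The 2 were Psmb8 of the immunoproteasome at -0.78 ± 0.11 and the non-classical class I gene H2-T10 at -0.58 ± 0.10. The class I gene H2-K1 read 0.04 and -0.64 and its partner chain B2m 0.80 and -1.08. The proteasome gene Psmb9 read -1.14 and -0.28, and all of these differed widely between the arrays. The peptide transporter gene Tap1 read -0.22 and 0.13, and none of these genes passed. Under the replicate block 4 class I genes passed, Psmb9 among them (adjusted p = 0.0276). The interferon gamma list held 2 calls without array 1 and 1 without array 2, and the class I list held 0 without each of the day 0 arrays and 1 or 2 without 1 of the others.

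Genes induced by type I interferon lay above 0: 8 of 30 were higher, against 1.28% of all genes, 0 were lower, and 23 of 30 were above 0 on both arrays, as were 29.3% of all genes. Rsad2, the antiviral enzyme viperin, read 1.53 and 1.29 (1.41 ± 0.15, 2.66-fold, adjusted p = 0.00691). Ifit3 read 1.18 and 1.23 and Ifit2 0.92 and 1.11, and both encode proteins that bind RNA or its partners in the antiviral response. Stat2, which carries the interferon signal to the nucleus, stood at 0.78 ± 0.12, Cmpk2 at 0.71 ± 0.12, Trim30a at 0.69 ± 0.10, Oasl1 at 0.68 ± 0.12 and the RNA sensor gene Ifih1 at 0.61 ± 0.11. Ifit1 read 1.61 and 0.32, Oasl2 0.99 and 0.55, and Isg15, a ubiquitin-like protein, 0.44 and 0.77; these did not pass, except Ifit1 with the replicate block (adjusted p = 0.0337). The list median was 0.28. Ifitm3 (-1.79) and Ifitm2 (-0.89), which interferon also induces, are not in the list and were lower. Without array 1 the list held 0 calls, without array 2 also 0, with 1 of the others left out 4 to 7 and with arrays scaled to equal spread 5.

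The core of the interferon-stimulated response element was searched as GAAANNGAA on both strands of the same promoters. It was held by 14 of 23 genes of the type I list and 13 of 20 of the interferon gamma list, against 9.76% of all promoters. Of the type I genes that passed, Rsad2, Ifit3, Stat2, Ifih1 and Trim30a held it. The windows of 3 of them are shown as the ones with the highest ratios, and the capitals mark the motif as read on the strand of the gene (chr12:26456528-26456606, minus strand, for Rsad2; chr19:34583373-34583451, plus strand, for Ifit3; chr10:128270248-128270320, plus strand, for Stat2).
Rsad2: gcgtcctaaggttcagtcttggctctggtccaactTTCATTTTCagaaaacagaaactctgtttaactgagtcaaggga
Ifit3: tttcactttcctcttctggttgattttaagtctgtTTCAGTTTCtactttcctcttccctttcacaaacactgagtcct
Stat2: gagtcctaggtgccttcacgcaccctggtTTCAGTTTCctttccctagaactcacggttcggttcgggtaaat
The motif in capitals begins 119, 121 and 221 bases before the start in Rsad2, Ifit3 and Stat2. Ifit3 holds 2 more matches in the same window, at 155 and 102 bases before the start, which are left in lower case. For the motif TTCNNNGAA, the letters that STAT factors bind, 9.55% of all promoters had a match. It was held by 6 of 23 type I and 8 of 20 interferon gamma genes, 1 of 9 MHC class II genes, 2 of 7 Reg genes and 2 of 24 acute phase genes. Of the genes in these lists that passed, Socs3, Reg3b, Ifit2 and H2-DMb2 held it. Of 17 Wnt target genes with a promoter 3 held CTTTGAT, the letters that TCF factors bind, against 4.29% of all promoters, and Mmp7 was among them.

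Of the 7 Reg family genes 4 were higher, against 1.28% of all genes. Beside Reg3b and Reg3g, Reg1, a growth-linked member, read 1.62 and 1.63 (1.63 ± 0.13, 3.09-fold), and Reg3a read 0.57 and 0.54 (0.55 ± 0.10). Reg genes are close relatives, so cross-hybridisation between them was not tested. Of 29 acute phase and mucosal defence genes 7 were higher and 0 lower. The serum amyloid genes Saa3 (2.43 and 3.15) and Saa1 (2.20 and 2.50) led, followed by Il18, a cytokine made by epithelial cells, with 2.35 and 1.97 (2.16 ± 0.10, 4.48-fold, adjusted p = 0.000288). Duoxa2, the partner that matures the hydrogen peroxide producing oxidase DUOX2, read 1.75 and 1.90 (1.82 ± 0.10). Lactoferrin, Ltf, at 0.82 ± 0.09, the lipopolysaccharide-binding protein Lbp at 0.78 ± 0.14 and angiogenin, Ang, at 0.53 ± 0.09 were higher by smaller amounts. Lcn2, which withholds iron from bacteria, read 0.17 and 0.34, and the NF-kB feedback genes Tnfaip3 and Nfkbiz read 0.72 and 0.58, and 0.41 and 0.55; these did not pass. Without array 1 or array 2, 4 acute phase genes and 2 Reg genes passed, and with the replicate block 11 acute phase genes did, Tnfaip3 among them (adjusted p = 0.0189).

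**Figure D4:**
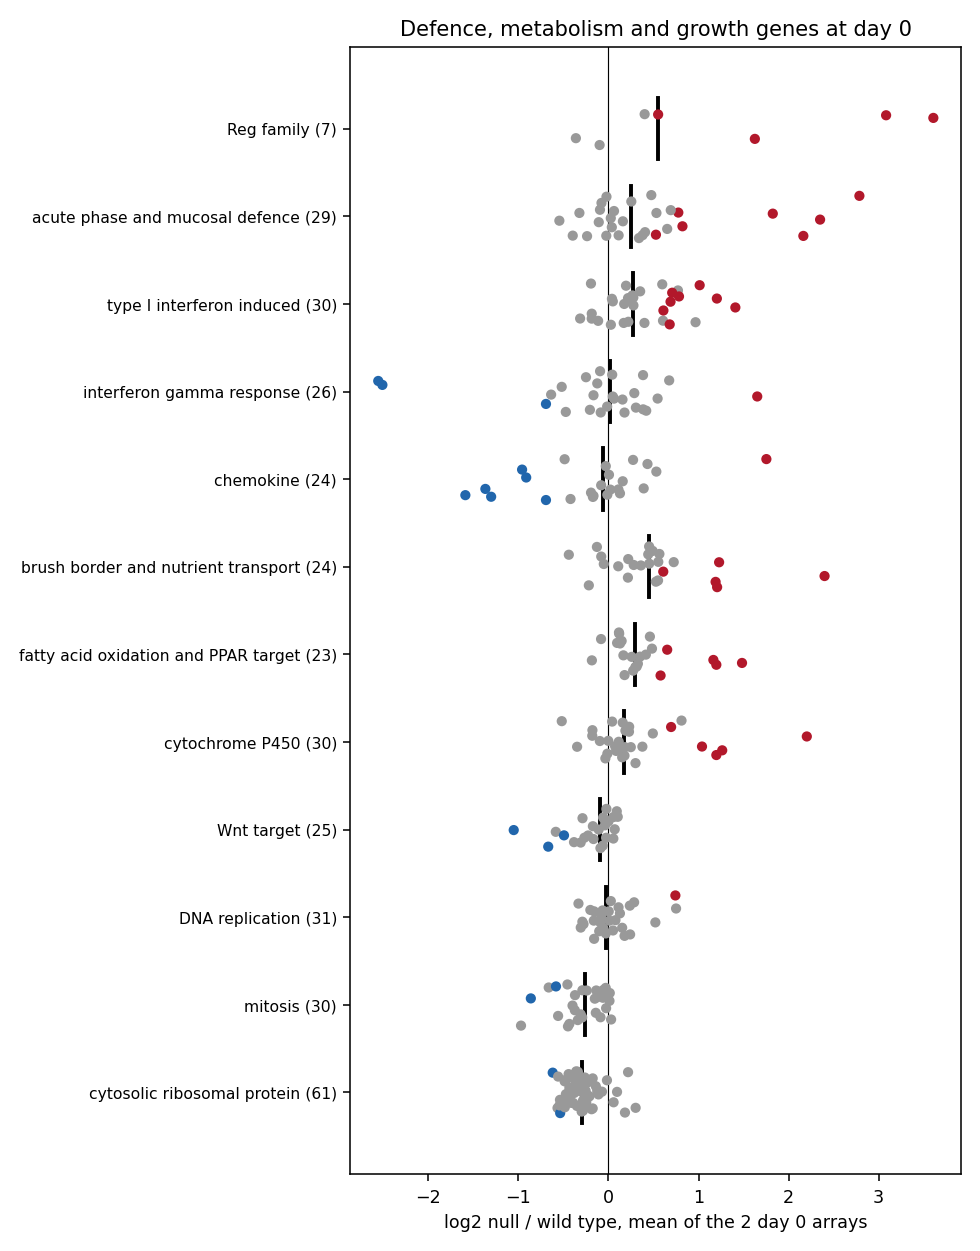
Mean log2 ratio of null over wild type at day 0 for each measured gene of 12 lists of defence, metabolism and growth (number of genes in brackets); red genes passed as higher, blue as lower, grey did not pass, and black lines are list medians. Beside grey points, Reg family, acute phase, type I interferon, transport, fatty acid oxidation, P450 and DNA replication lists hold red but no blue ones. Chemokine and interferon gamma genes hold both colours, and ribosomal protein genes lie mostly below 0 (median -0.30).

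Genes of absorptive enterocytes lay above 0. Of 19 measured, 3 were higher (1.28% of all genes), 0 lower, and 16 were above 0 on both arrays (29.3% of all genes), with a median of 0.45. Cyp3a11, a cytochrome that oxidises drugs and bile acids, read 1.98 and 2.42 (2.20 ± 0.13, 4.60-fold, adjusted p = 0.000589). The adhesion protein gene Tmigd1 stood at 1.38 ± 0.13 and Slc2a2, the glucose transporter GLUT2, at 0.61 ± 0.11. Mttp, which loads lipoproteins with fat, read 2.39 and 0.51, the peptidase Dpp4 0.75 and 1.41, and Fabp1, a fatty acid carrier, 1.47 and -0.58, and none of these passed. Without array 1, 1 member passed, without array 2, 0, and with the replicate block 5, Dpp4 among them (adjusted p = 0.00216).

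Of 24 brush border and nutrient transport genes 5 were higher and 0 lower, against 1.28% and 0.965% of all genes, with a median of 0.45. Slc6a14, which takes up a broad range of amino acids, read 2.51 and 2.29 (2.40 ± 0.13, 5.28-fold, adjusted p = 0.000355). The monocarboxylate transporter Slc5a8 at 1.25 and 1.21, the nucleoside transporter Slc28a2 at 1.35 and 1.06, and Eps8, which caps actin in microvilli, at 1.74 and 0.64 followed, with Slc2a2. Slc5a1, the sodium-glucose transporter, read 0.31 and 0.67 and did not pass. Of 25 genes of apolipoproteins and fat absorption 3 were higher: the fatty acid receptor Cd36 at 1.23 ± 0.17, and the sterol exporters Abcg8 at 0.67 ± 0.10 and Abca1 at 0.65 ± 0.11. Apoa4, an apolipoprotein of chylomicrons, read 0.60 and 0.33. Of 23 genes of fatty acid oxidation and PPAR targets 5 were higher. They were Pdk4, a brake on glucose oxidation, at 1.36 and 1.60 (1.48 ± 0.12, 2.80-fold), Cyp4a10, a fatty acid hydroxylase, at 1.21 and 1.19, the pantetheinase Vnn1 at 1.17 ± 0.18, the peroxisomal enzyme Ehhadh at 0.65 ± 0.10 and the thioesterase Acot12 at 0.58 ± 0.11. Cpt1a, which admits fatty acids to mitochondria, read 0.77 and 0.07. Without array 1 and without array 2, the transport list held 1 and 1 calls, fat absorption 0 and 0, and fatty acid oxidation 1 and 0, and with 1 of the other arrays left out they held 3, 2 or 3, and 2 to 4.

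Of 30 cytochrome P450 genes 5 were higher and 0 lower, where 1.28% of all genes were higher. Beside Cyp3a11 and Cyp4a10, these were Cyp3a25 at 1.26 and 1.27, Cyp3a41a at 1.13 and 0.94 and Cyp2j6 at 0.98 and 0.41. Cyp3a genes are near-identical copies, and the 2 probes of Cyp3a41a read 0.48 and 1.60. Of 44 conjugation and detoxification genes the carboxylesterase Ces1f at 1.37 ± 0.16, the efflux pump Abcg2 at 0.88 ± 0.16 and the sulfotransferase Sult1d1 at 0.71 ± 0.13 were higher. Of 22 alcohol and aldehyde dehydrogenase genes Adh1 at 1.14 ± 0.20 and Rdh10, which oxidises retinol, at 0.64 ± 0.10 were higher. Of 14 carbonic anhydrase genes Car4 was higher and the mitochondrial Car5a was lower, at -1.34 and -1.03 (-1.19 ± 0.10, 2.28-fold lower, adjusted p = 0.00228). Of 18 cholesterol synthesis genes 0 passed (4 at an unadjusted p under 0.05, as had 15% of all genes). Of 15 ion secretion genes Guca2a alone passed. Under the replicate block 8 P450, 6 conjugation, 5 dehydrogenase and 3 ion secretion genes passed. Without array 1, 1 P450 and 1 carbonic anhydrase gene passed and 0 of the conjugation, dehydrogenase and ion secretion lists, and without array 2, 0 of all these lists. With 1 of the other arrays left out 4 or 5 P450, 1 or 2 conjugation and 0 or 1 dehydrogenase genes passed.

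Regional lists of the small intestine gave 1 call each, where 1.28% of all genes were higher. Fabp6, the bile acid carrier of the ileum, read 2.42 and 2.06 (2.24 ± 0.12, 4.72-fold, adjusted p = 0.000355) and was the sole call among 16 ileum genes. The bile acid transporter gene Slc10a2 read 0.19 and 0.42 and the hormone gene Fgf15 -0.21 and 0.24. Among 17 duodenum and jejunum genes Adh1 was the sole call, and the proximal transcription factor Gata4 read 0.34 and -0.13. Of 9 genes of adult-type enterocytes Slc2a2, Reg3b and Reg3g were higher. Of 13 genes of suckling-type enterocytes 0 passed (2 unadjusted, and 1 with the replicate block). An unadjusted p under 0.05 was held by 5 ileum, 6 duodenum and jejunum and 7 adult-type genes, against 15% of all genes. With the replicate block 2 ileum and 4 duodenum and jejunum genes passed. Without either day 0 array Fabp6 still passed, and Adh1 did not, and Adh1 was also lost without either day 1 array or either LiCl array.

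Few genes of growth passed at day 0, in lists where 1.28% (higher) and 0.965% (lower) are the shares of all genes. Of 31 DNA replication genes Rrm2, a subunit of ribonucleotide reductase, was higher at 0.74 ± 0.12, with 4 probes from 0.22 to 1.05, and Mcm5, of the replication helicase, read -0.41 and -0.20 and did not pass. Of 30 mitosis genes 2 were lower: Ccnb2, a mitotic cyclin, at -0.59 and -1.13 (-0.86 ± 0.15), and Cenpa, the centromere histone, at -0.77 and -0.40 (-0.58 ± 0.10). The median was -0.27 and 18 of 30 were below 0 on both arrays. Kif23, a motor of cell division, read -0.36 and -1.59. Of 61 cytosolic ribosomal protein genes 2 were lower, Rpl4 at -0.62 ± 0.11 and Rpl11 at -0.54 ± 0.10, while 32 of 61 had an unadjusted p under 0.05 and 49 of 61 were below 0 on both arrays (15% and 29.3% of all genes), with a median of -0.30. Rpl5 read -0.56 and -0.57 and did not pass. Of 29 genes of nucleolar ribosome biogenesis 0 passed by limma, 16 had an unadjusted p under 0.05, and 25 were below 0 on both arrays, with a median of -0.30. With the replicate block 2 replication, 4 mitosis, 7 ribosomal protein and 4 nucleolar genes passed, Rpl5 among them (adjusted p = 0.0404), and without either day 0 array 0 did. With 1 of the other arrays left out, 0 to 2 mitosis, 0 or 1 replication and 0 or 1 ribosomal protein genes passed.

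In 5 lists of stress genes all members that passed were higher. Of all genes 1.28% were higher. In the hypoxia and glycolysis list 3 of 24 were higher, Pfkfb3 at 1.11 and 1.28 and Hk2 at 1.05 and 1.27, both enzymes that promote glycolysis, and the vessel growth factor Vegfa at 0.71 ± 0.10. In the immediate early list 3 of 24 were higher, the AP-1 genes Fos at 0.96 and 1.04 and Jun at 0.65 and 0.61, and Dusp6, a phosphatase of the kinase ERK, at 0.67 ± 0.12. Of 20 genes of p53 targets and apoptosis Trp53inp1 at 0.68 ± 0.11 and Apaf1, the scaffold of the apoptosome, at 0.63 ± 0.12 were higher. The chaperone Hyou1 at 0.97 ± 0.11 was the sole call among 22 genes of the unfolded protein list, and Phgdh of serine synthesis at 0.74 ± 0.12 the sole call among 22 genes of the integrated stress response. An unadjusted p under 0.05 was held by 8 hypoxia genes, 7 immediate early genes and 6 genes of each other list, against 15% of all genes. With the replicate block the unfolded protein and integrated stress response lists each held 2 calls. All these lists held 0 calls without array 1 and 0 without array 2. With 1 of the other arrays left out, hypoxia held 3, immediate early 1 to 3, p53 0 to 2 and the integrated stress response 0 to 2.

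Day 0 was then set against day 1 without LiCl, to describe which ratios differed between these days. The ratio differed between the days for 1277 of 15123 genes (8.44%), and for 150 of the 340 genes that passed at day 0. Of these 150, 68 were higher and 82 lower in null crypts at day 0. The 340 were chosen by the same day 0 arrays, which raises their share, so it cannot be set against the 8.44%. The same holds for genes named for their day 0 values. MHC class II genes were among those that differed: 8 of 12 had lower ratios at day 0 than at day 1, where the median of the list was -0.07. H2-Aa had a mean of -0.10 at day 1, a difference between the days of -2.49 (adjusted p = 0.00326). Of 22 T cell genes 10 had lower ratios at day 0, and their day 1 median was -0.03. Ido1 was at 0.11 and Ccl24 at -0.17 at day 1, and Saa3 was at -0.09, a difference of 2.88 (adjusted p = 0.0011). Il18 and Saa1 were likewise near 0 at day 1, at 0.06 and 0.03. Interferon-induced Rsad2 was at -0.11 and Ifit3 at 0.06 at day 1, whereas Oasl1 was at 0.89 and Ifih1 at 0.91 there, with differences that did not pass. Of 30 type I interferon genes, 5 had higher and 3 lower ratios at day 0 than at day 1.

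Other genes had like ratios on both days, and their differences did not pass. Lyz1 had a mean of -3.54 at day 1 (difference -0.65, adjusted p = 0.097), Defa3 -2.49 and Reg3b 2.95 (difference 0.65, adjusted p = 0.109). Fabp6 stood at 2.32 and Cyp3a11 at 2.44 at day 1, with differences of -0.08 and -0.24 that did not pass. These results do not show that the ratios were equal, nor that they held in between. At day 0.5 the means were -3.56 for Lyz1, -2.65 for Defa3, 4.07 for Reg3b, 1.51 for Fabp6 and 0.68 for Cyp3a11. Both day 0.5 arrays carry the null RNA in Cy5, so a dye effect does not cancel there. In a further set the difference was the larger one at day 1. Ccnd1 was at -3.09 there, Cdca7 at -2.85, Mmp7 at -2.38 and Axin2 at -1.65, and all of these differed between the days. Of 31 DNA replication genes 25 and of 30 mitosis genes 17 had higher ratios at day 0 than at day 1, where the medians were -1.45 and -1.48. Lgr5 (difference 0.86, adjusted p = 0.0197) and Smoc2 (1.48, adjusted p = 0.00707) were also nearer 0 at day 0. The count of genes that differed rests on all 4 arrays: it was 113 without day 0 array 1, 190 without array 2, 259 and 452 without day 1 arrays 1 and 2, and 1971 with the replicate block. The SD of the ratios over all probes was 0.318 and 0.296 at day 0 and 0.473 and 0.441 at day 1, and with arrays scaled to equal spread 392 genes differed.

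**Figure D5:**
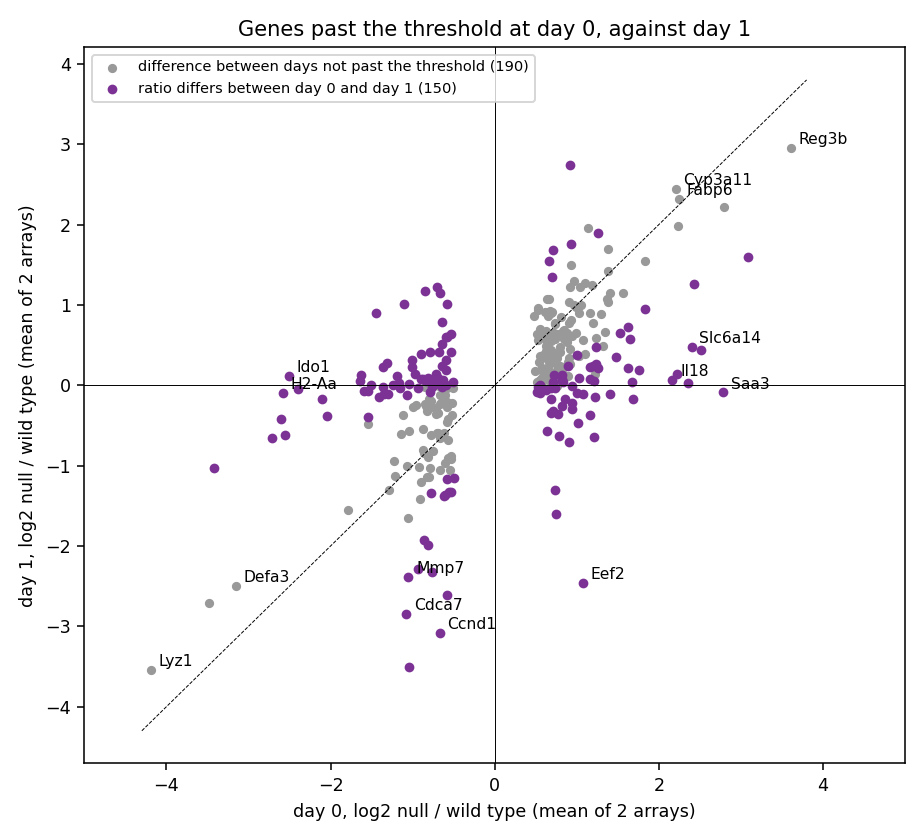
Mean log2 ratio of null over wild type at day 0 (x axis) and at day 1 (y axis) for the 340 genes that passed at day 0, with a dashed line of equal values. Purple genes (150) have a ratio that differs between the days and grey genes (190) do not pass that test; H2-Aa, Ido1, Saa3 and Il18 lie near 0 at day 1, while Lyz1, Defa3, Reg3b and Fabp6 lie near the dashed line.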

How the data were processed

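Per the labels' protocols, total RNA was copied into antisense RNA with an aminoallyl nucleotide, labelled with Cy5 or Cy3, and applied to MEEBO arrays, whose probes are long oligonucleotides. The values the authors deposited are log ratios of channel 1 over channel 2, 1 per probe on each array, taken here as log2. How the background was corrected, how the ratios were normalized and which log base was used is not given in the sources used here.

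Of 38467 probes, 22305 of the classes mMC, mMR, mMA and mMO with 1 gene symbol were kept, averaged per gene (15123 genes), and arrays were median-centred. All 8 arrays were fitted by limma (3.58.1, R 4.3.3) with 4 group means and a dye term, then eBayes (3 residual degrees of freedom, 4.11 prior), with Benjamini-Hochberg adjustment over all genes and an adjusted p threshold of 0.05. The fit was run on simulated data with independent noise, no dye effect and no shared deviation of same-numbered arrays. There 70 of 100 genes changed by 1 passed, 97 of 100 changed by 2, and 4 of 14923 unchanged genes. The simulation therefore does not cover the pairing of arrays described below. The contrasts were day 0 against 0 and day 0 minus day 1. No array was turned by its dye, since the day 0 arrays with opposite dyes correlate above 0. The LiCl arrays correlate below 0 with the day 1 arrays (r = -0.493 to -0.318), so their direction is not settled; they were used as deposited, with their sign turned as an alternative.

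The members and the 46 gene lists were chosen with earlier results of these data known. Genes named were the 15 highest and 15 lowest that passed, list members that passed, and further members picked after their values were seen. Deviations of same-numbered arrays from their group means correlated in all 6 pairs of groups (r = 0.21 to 0.28), though no label states a shared batch. By this check of the data the numbers may pair the arrays. The main fit does not model this pairing, and only the replicate block does. Counts given without naming the block therefore leave it out. Alternatives covered the dye term, arrays fitted, LiCl sign, scale, centring, probe rules, replicate block and each array left out. A planned print of proteins was not made, and the search of Reg and acute phase promoters was added after seeing the data.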

Additional observations from a re-analysis of the deposited data

Results flagged for a closer look

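The following results stand out because the log2 ratio of null over wild type differed between day 0 and day 1 by limma's test of that difference (adjusted p under 0.05). Each value in brackets is the ratio at day 0 minus that at day 1. This held for 84 of the named genes, with the ratio lower at day 0 for 41 and higher for 43. These 84 are among 1277 of 15123 genes that passed the test, and with 2 arrays a group no array can be called an outlier here. Many named genes were chosen by their day 0 values, which enter this difference, so their number cannot be set against that of all genes.

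Among genes with a lower ratio at day 0, those of MHC class II were H2-Aa (-2.49), H2-DMb1 (-2.39), H2-Eb1 (-2.35), Cd74 (-2.18), H2-Ab1 (-2.06), H2-DMb2 (-1.67), H2-DMa (-1.14) and Ciita (-0.90). T cell and natural killer cell genes were Lat (-1.58), Ccl5 (-1.52), Gzma (-1.52), Gzmb (-1.34), Cd3g (-1.25), Klrd1 (-1.24), Xcl1 (-1.20), Cd3d (-1.11), Nkg7 (-0.96) and Coro1a (-0.74). Interferon gamma responsive, chemokine and class I genes were Ido1 (-2.62), Ubd (-1.94), Ccl24 (-1.94), Ccl4 (-1.59), H2-T10 (-1.18) and Cxcl9 (-0.79). Genes of other cells were Laptm5 (-2.34), Vim (-1.59), Hba-a1 (-0.90) and Dcn (-0.55). Secretory and pancreatic genes were Mptx1 (-2.11), Zg16 (-1.89), Ctrb1 (-1.29), Pnliprp1 (-1.26), Cpa1 (-0.90) and Clps (-0.85). Some crossed 0 between the days, such as Mptx1, Laptm5 and Vim, which were below 0 at day 0 and at 1.01, 0.90 and 1.01 at day 1. The others were Fibcd1 (-1.75), Lim2 (-1.69), Car5a (-1.31), Sult1d1 (-0.97), Dusp6 (-0.88), Cyp2j6 (-0.66) and Cyp3a25 (-0.63).

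Among genes with a higher ratio at day 0, those of defence and acute phase were Saa3 (2.88), Saa1 (2.32), Il18 (2.10), Reg3g (1.49), Reg1 (0.90), Lbp (1.13), Duoxa2 (0.87), Ltf (0.75), Ang (0.54), Cd14 (1.18) and Ccl20 (1.56). Interferon-induced and cytokine feedback genes were Rsad2 (1.52), Ifit2 (1.48), Ifit3 (1.15), Trim30a (0.72) and Socs3 (1.08). Stem cell, Wnt target, cell cycle and ribosomal genes were Ccnd1 (2.42), Rrm2 (2.35), Cenpa (2.03), Mcm5 (2.02), Cdca7 (1.77), Axin2 (1.60), Smoc2 (1.48), Mmp7 (1.33), Ccnb2 (1.06), Ascl2 (0.93), Lgr5 (0.86), Rnf43 (0.66) and Rpl4 (0.75); except for Rrm2, which was at 0.74 at day 0, their day 0 ratios were below 0 and their day 1 ratios further below. The others were Fos (0.62), Jun (0.69), Trf (0.88), Cyp4a10 (0.96), Slc5a8 (0.96), Pdk4 (1.13), B3galt5 (1.17), Hk2 (1.53), Slc28a2 (1.85), Slc6a14 (1.92), Phgdh (2.04), Ada (2.08), Nt5e (2.09) and Eef2 (3.54). The probes of Eef2 disagree.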

How the results depend on the processing

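The 15 highest and 15 lowest genes all kept their direction in every alternative that measured them, and all 30 passed in every alternative with all arrays, except that probes of class mMC only measured 26, which all passed. With 1 array left out, 22 and 17 passed without day 0 arrays 1 and 2, 29 without either day 0.5 array (Gjb1 was lost), and 30 without a day 1 or LiCl array. Of the 119 named genes that passed, 118 kept their sign in the alternatives that measured them, and Lyz2, whose probes disagree, reversed to 0.057 with mMC probes. These signs were largely fixed in advance, since genes passed only with the same sign on both day 0 arrays. Most alternatives also leave the day 0 mean itself unchanged. Against 340 genes (194 higher, 146 lower), turning the sign of the LiCl ratios gave 522 (297 and 225), and the replicate block 635 (370 and 265), with 1971 genes that differed between day 0 and day 1 in place of 1277. Scaling the arrays to equal spread gave 254 and, for the days, 392. The other alternatives gave 246 (mMC probes only) to 443 (no dye term), and taking day 0.5 replicate 2 as a dye swap, an alternative chosen after seeing the data, gave 400. With 1 array left out, the counts ran from 29 to 310 genes, 15 to 181 higher, 9 to 129 lower, 29 to 111 at least 2-fold, and 113 to 1356 between the days. The cause was not tested, except that a lone day 0 array was assumed to vary like the other groups. Signs of 12 named genes that had not passed turned when a day 0 array was left out, with ranges of Acta2 -0.014 to 0.18, Adgre1 -0.051 to 0.011, B2m -0.84 to 0.56, Cd79a -0.27 to 0.039, Defa21 -0.13 to 0.22, Fabp1 -0.44 to 1.32, Fgf15 -0.27 to 0.30, Gata4 -0.22 to 0.42, H2-Oa -0.013 to 0.20, Myc -0.34 to 0.0062, Sox9 -0.70 to 0.17 and Tap1 -0.11 to 0.011. The number of genes that passed moved by over 1.5 times in 21 of 46 lists with the replicate block, 14 with mMC probes only, 12 each with scaled arrays and with the day 0 arrays alone, and in 34 without either day 0 array; the values for the lists described are given above where they rest on the block or on 1 array. Among the other changes, mMC probes took cytochrome P450 genes from 5 to 2 and conjugation genes from 3 to 1, and turned LiCl ratios took ribosomal protein genes from 2 to 7. Beside the changes given in the report, the block changed no other call of a named gene. Without intensities, signal over background sets no stated limit on any value.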

Other observations

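Of the genes of pancreatic digestive enzymes, 4 were picked after their values were seen to be lower in null crypts, and other genes of this kind were not examined. Pnliprp1, a lipase-related protein, read -1.39 and -1.43 on the arrays of day 0 (-1.41 ± 0.14), the chymotrypsinogen gene Ctrb1 -1.13 and -0.68, the carboxypeptidase gene Cpa1 -0.60 and -1.08, and the ribonuclease gene Rnase1 -1.36 and -1.73. Clps, the lipase cofactor counted above with the Paneth cell genes, is also made by the pancreas. At day 1 Pnliprp1 was at -0.15, Ctrb1 at 0.39 and Cpa1 at 0.06, and the difference between the days passed for each of these. Rnase1 was at -0.48 at day 1, and its difference of -1.07 did not pass (limma, adjusted p = 0.133). A part of pancreatic RNA in these samples was not tested.

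Further genes picked after their values were seen to be higher include 3 of lysosomal proteases and an inhibitor of them, and other genes of this kind were not examined. The protease inhibitor gene Cst3 read 1.39 and 1.41 (1.40 ± 0.13), the protease gene Lgmn 1.46 and 0.74 and the carboxypeptidase gene Scpep1 1.12 and 0.85. The iron carrier gene Trf stood at 1.53 ± 0.11. Ifitm2, a relative of Ifitm3, was lower at -0.89 ± 0.12. Eef2, an elongation factor of translation, was at 1.07 ± 0.11 at day 0 and at -2.46 at day 1, but its 3 probes read 0.01, 1.52 and 1.69 at day 0.

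Of 12773 probes of the used classes without a gene symbol, 32 had a mean of 1 or more and 41 a mean of -1 or less with the same sign on both arrays of day 0. The lowest, mMR029859 and mMR030845, read -4.43 and -4.60, and -4.34 and -4.62, below the value of Lyz1, and their genes are not named in the table used.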
